A study of Rattus norvegicus with 9 samples.

Results

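The T and cytotoxic lymphocyte markers were 10 genes chosen by symbol from the 32883 genes of the rat liver count and TPM tables, namely Cd3d, Cd3e, Cd3g, Cd4, Cd8a, Cd8b, Gzmb, Prf1, Nkg7 and Il2rb. All 10 symbols had 1 entry each, and 9 of the 10 genes had enough counts to be tested. Bulk RNA-seq was performed on 9 livers, with 3 livers in each of 3 groups, and the labels call the livers of a group biological replicates. The normal group came from rats labelled only as normal. The empty and UTOpiA groups were male Sprague-Dawley rats aged 8 to 11 weeks with acute-on-chronic liver failure (ACLF), in which the bile duct was ligated for 21 days and lipopolysaccharide (LPS) was then given intraperitoneally at 0.25 mg/kg. Both ACLF groups were catheterised under isoflurane, received heparin and were connected 1 h after LPS for 2 h to an extracorporeal circuit. In the empty group the circuit held neither cells nor adsorbent. In the UTOpiA group it held gene-edited human iPSC-derived hepatocyte-like cells encapsulated in alginate, together with a granulocyte and monocyte adsorption (GMA) column of cellulose acetate beads. Livers of the ACLF rats were collected 24 h after LPS from animals alive at that time, so both groups represent survivors. Ligation, LPS and the circuit all separated the ACLF livers from the normal ones, and cells and beads together separated the UTOpiA group from the empty group, so the single components cannot be told apart. The labels give no batch.

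T cells recognise peptides on MHC molecules through the T cell receptor, whose signal is carried into the cell by the CD3 chains encoded by Cd3d, Cd3e and Cd3g. CD4 and CD8 are the co-receptors that bind MHC class II and class I. In the rat, CD4 is also carried by monocytes and macrophages, and the CD8 alpha chain without the beta chain is also found on natural killer (NK) cells. Cytotoxic T cells and NK cells kill through granules in which perforin (Prf1) opens the way for granzymes such as granzyme B (Gzmb), and NKG7 is a membrane protein of these granules. Il2rb encodes the beta chain shared by the IL-2 and IL-15 receptors. The liver is normally rich in NK cells, so perforin, NKG7 and Il2rb can be present where CD3 is scarce.

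The 3 CD3 genes lie together on chromosome 8 of the deposited table, with Cd3g (ENSRNOG00000015945) at 49274960 to 49280901 on the minus strand, Cd3d (ENSRNOG00000015994) at 49282460 to 49287110 on the plus strand and Cd3e (ENSRNOG00000016069) at 49297608 to 49308806 on the minus strand. Cd3g and Cd3d are transcribed away from each other from starts 1559 bp apart. Cd8b (ENSRNOG00000007129, 99185885 to 99202023) and Cd8a (ENSRNOG00000007178, 99239115 to 99243351) are neighbours on the plus strand of chromosome 4, which also carries Cd4 (ENSRNOG00000016294, 157383052 to 157408176, minus strand). The submitters' processing notes name the rn6 build for these positions. Each row counts reads over a whole gene.

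To show the sequence next to the start of genes that rose together in ACLF, the 250 bases before the annotated start are given for 1 gene of the receptor and 2 of the granule, from RefSeq on the rat build GRCr8, which is not the build of the counts. The Cd3e stretch is chr8:54211771-54212020 on the minus strand, the Prf1 stretch is chr20:29788790-29789039 on the plus strand and the Nkg7 stretch is chr1:102981247-102981496 on the plus strand. Capitals mark 2 motifs searched on both strands, AGGAAG (the core bound by ETS factors, CTTCCT on the other strand) and TGTGGT (the core bound by RUNX factors, ACCACA on the other strand), which do not overlap here.
Cd3e: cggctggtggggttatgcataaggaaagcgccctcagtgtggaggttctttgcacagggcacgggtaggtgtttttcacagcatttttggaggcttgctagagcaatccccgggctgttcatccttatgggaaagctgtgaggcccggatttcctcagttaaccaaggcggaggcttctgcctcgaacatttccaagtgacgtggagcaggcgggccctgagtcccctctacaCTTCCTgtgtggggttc
Prf1: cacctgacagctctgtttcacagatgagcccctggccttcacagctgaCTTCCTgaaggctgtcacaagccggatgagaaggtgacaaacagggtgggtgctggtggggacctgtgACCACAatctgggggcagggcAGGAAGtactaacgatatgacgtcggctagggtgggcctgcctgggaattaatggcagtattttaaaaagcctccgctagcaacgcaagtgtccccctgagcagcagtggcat
Nkg7: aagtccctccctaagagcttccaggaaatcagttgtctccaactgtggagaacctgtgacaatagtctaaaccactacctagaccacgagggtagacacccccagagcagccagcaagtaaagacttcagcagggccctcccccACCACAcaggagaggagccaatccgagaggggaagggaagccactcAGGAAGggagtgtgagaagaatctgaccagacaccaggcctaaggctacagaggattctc
Of the 10 genes, 7 had a promoter entry in RefSeq (Cd4, Cd8b and Il2rb did not). The Cd3d stretch lies inside the span of its own gene in the same annotation, and the Cd3g stretch lies mostly inside it, since a gene can have several starts. The ETS core stood in 5 of these 7, namely Cd3d, Cd3e, Cd3g, Prf1 and Nkg7, while 29.5% of all 33469 rat promoter entries of the same length hold it. The RUNX core stood in 3 of the 7, namely Gzmb, Prf1 and Nkg7, against 14.5% of all entries. Of the other motifs searched, the palindrome TTCNNNGAA of STAT factors was found in 3 of 7 (7.67% of all entries), CAGCTG of E proteins in 2 (12%), AGGTGT of T-box factors in 2 (11.6%), CTTTGA of TCF7 and LEF1 in 1 (13.9%) and AGATAA of GATA factors in 0 (10.3%). These are matches of letters, and no binding was measured.

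Per library, 14241172 to 17321677 reads were counted, and the 10 genes together took 18.8 to 21.9 of every 1000000 counts in the normal livers, 68.9 to 113 in empty livers and 42.3 to 107 in UTOpiA livers. The share of the albumin gene in all counts was 13.3 to 14.9% in the normal group and 1.54 to 3.91% over the ACLF livers. Fold changes are therefore given after TMM scaling, under which the median log2 fold change of all 14089 tested genes was 0.04 for empty against normal and 0.05 for UTOpiA against normal. With library totals in place of TMM these medians were 0.60 and 0.42, and that for UTOpiA against empty moved from 0.00 to -0.18. In bulk tissue, fewer cells of a type and less RNA per cell cannot be told apart.

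The CD3 genes were at or near 0 in normal livers and present in every ACLF liver. Cd3d, the delta chain, had 0 counts in all 3 normal livers, 11, 15 and 24 counts in the empty group (replicates 1, 2 and 3) and 12, 10 and 7 counts in the UTOpiA group. Its level was 1.53, 2.26 and 3.54 TPM (2.44 ± 1.02, SD, n = 3) in the empty group and 1.98, 1.503 and 1.05 TPM (1.51 ± 0.464, SD, n = 3) in the UTOpiA group. All ACLF livers were thus above all normal livers, and the ACLF groups overlapped. Against a floor of 3 counts over the normal group, Cd3d was at least 10.2-fold higher in the empty group (adjusted p = 0.00187, edgeR quasi-likelihood test with Benjamini-Hochberg adjustment over all genes tested) and at least 7.18-fold higher in the UTOpiA group (edgeR, adjusted p = 0.00429). These bounds cover counting error only.

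Cd3e, the epsilon chain, was at 0.333, 0.235 and 0 TPM in normal livers (4, 3 and 0 counts), at 2.61, 1.16 and 2.41 TPM in the empty group and at 2.30, 0.940 and 1.16 TPM in the UTOpiA group. Its lowest ACLF liver, UTOpiA replicate 2, stood above the highest normal liver. The log2 fold change was 2.90 ± 0.79 (SE) for empty against normal (edgeR, adjusted p = 0.0137) and 2.62 ± 0.80 for UTOpiA against normal (edgeR, adjusted p = 0.0279). The second of these calls was lost in edgeR when normal replicate 2, normal replicate 3 or UTOpiA replicate 1 was left out, and in DESeq2 without UTOpiA replicate 1.

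Cd3g, the gamma chain, was at 0.203, 0.572 and 0.188 TPM in normal livers (1, 3 and 1 counts), at 2.28, 1.76 and 3.62 TPM in the empty group and at 3.66, 2.64 and 1.76 TPM in the UTOpiA group. The ACLF groups covered nearly the same range, and both lay above the normal livers. The log2 fold change was 2.39 ± 0.62 for empty against normal (edgeR, adjusted p = 0.0111) and 2.66 ± 0.62 for UTOpiA against normal (edgeR, adjusted p = 0.00897). The first call held in edgeR with each library left out, and in DESeq2 it was lost without normal replicate 1 (adjusted p = 0.0521), normal replicate 3 (adjusted p = 0.057) or empty replicate 3 (adjusted p = 0.0578). Over the 3 CD3 genes together, the normal livers held 12 counts, the empty group 184 and the UTOpiA group 131. The summed rate was 9.40-fold higher in the empty group than in the normal group, with a 95% counting interval of 5.25 to 18.5 that does not include the spread between livers.

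Cd4 was the most abundant of the 10 genes in every liver. It was at 13.5, 10.6 and 11.5 TPM in normal livers (11.9 ± 1.47, SD, n = 3), at 82.4, 53.1 and 41.7 TPM in the empty group (59.1 ± 21.03) and at 34.0, 85.4 and 22.7 TPM in the UTOpiA group (47.4 ± 33.4). All ACLF livers were above all normal livers, and UTOpiA replicates 1 and 3 stood below every empty liver. UTOpiA replicate 2 stood above every empty liver in TPM, but below empty replicate 1 after TMM scaling. The log2 fold change was 1.81 ± 0.40 for empty against normal (edgeR, adjusted p = 0.00567) and 1.57 ± 0.40 for UTOpiA against normal (edgeR, adjusted p = 0.0136). The latter was no longer called without normal replicate 2 (edgeR, adjusted p = 0.0524).

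Most macrophage markers also rose. Of 13 tested macrophage markers, 9 rose and 0 fell in the empty group, beside 20.7% and 11.1% of all tested genes. The summed level of the macrophage markers was 539 to 643 TPM in normal livers, 2112 to 3366 TPM in the empty group and 1102 to 3379 TPM in the UTOpiA group. None of these markers was at 0 counts throughout. The 4 that were not called, named after their values were seen, were Clec4f (-0.85), Cd5l (-0.01), Vsig4 (0.45) and Mrc1 (0.61), all on the log2 scale. Csf1r, the receptor for the macrophage growth factor CSF1, had a log2 fold change of 2.03 ± 0.34 in the empty group (edgeR, adjusted p = 0.00139), and Cd68, a lysosomal macrophage protein, had one of 2.01 ± 0.33 (edgeR, adjusted p = 0.00131). Within a liver, the TPM ratio of Cd4 to Csf1r was 0.732, 0.740 and 0.775 in normal livers, 0.687, 0.828 and 0.446 in empty livers and 0.545, 0.873 and 0.825 in UTOpiA livers. The 3 groups overlapped, and the mean log2 ratio differed by -0.24 between empty and normal (two-sided exact permutation test, p = 0.6, where 0.1 is the smallest p that 3 livers against 3 can give). The ratio of Cd4 to summed CD3 TPM was 25.2, 13.2 and 61.4 in normal livers, 12.8, 10.3 and 4.35 in empty livers and 4.28, 16.8 and 5.72 in UTOpiA livers. Every empty liver was below every normal liver in this ratio, by -1.72 on the log2 scale (exact permutation p = 0.1), while the UTOpiA group overlapped both. The part of macrophages in the level of Cd4 was not tested.

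Cd8a, the alpha chain of CD8, was at 0.630, 0.0847 and 1.42 TPM in normal livers (7, 1 and 17 counts), at 3.98, 1.96 and 4.90 TPM in the empty group and at 7.97, 3.05 and 1.72 TPM in the UTOpiA group. All ACLF livers were above all normal livers in TPM, but normal replicate 3 and empty replicate 2 overlapped once scaled by TMM. Its log2 fold change of 1.79 ± 0.80 for empty against normal (edgeR, adjusted p = 0.0904) and of 2.20 ± 0.80 for UTOpiA against normal (edgeR, adjusted p = 0.0537) did not pass the threshold. Both passed with DESeq2 (adjusted p = 0.0474 and 0.0164), with limma on TPM and with library totals in edgeR. Without normal replicate 3 both also passed in edgeR, with log2 fold changes of 2.80 (adjusted p = 0.0416) and 3.21 (adjusted p = 0.0335), and the second also passed without empty replicate 2 or UTOpiA replicate 3.

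Cd8b, the beta chain that distinguishes the heterodimer of conventional cytotoxic T cells, had 0 counts in all 3 normal livers. It had 19, 12 and 11 counts in the empty group and 22, 15 and 6 counts in the UTOpiA group, or 1.30, 0.887 and 0.797 TPM and 1.78, 1.11 and 0.443 TPM. Every ACLF liver held Cd8b, and the UTOpiA livers spanned the range of the empty ones. Against the floor of 3 counts over the normal group, Cd8b was at least 8.58-fold higher in the empty group (edgeR, adjusted p = 0.00416) and at least 10.6-fold higher in the UTOpiA group (edgeR, adjusted p = 0.00445).

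**Figure D1:**
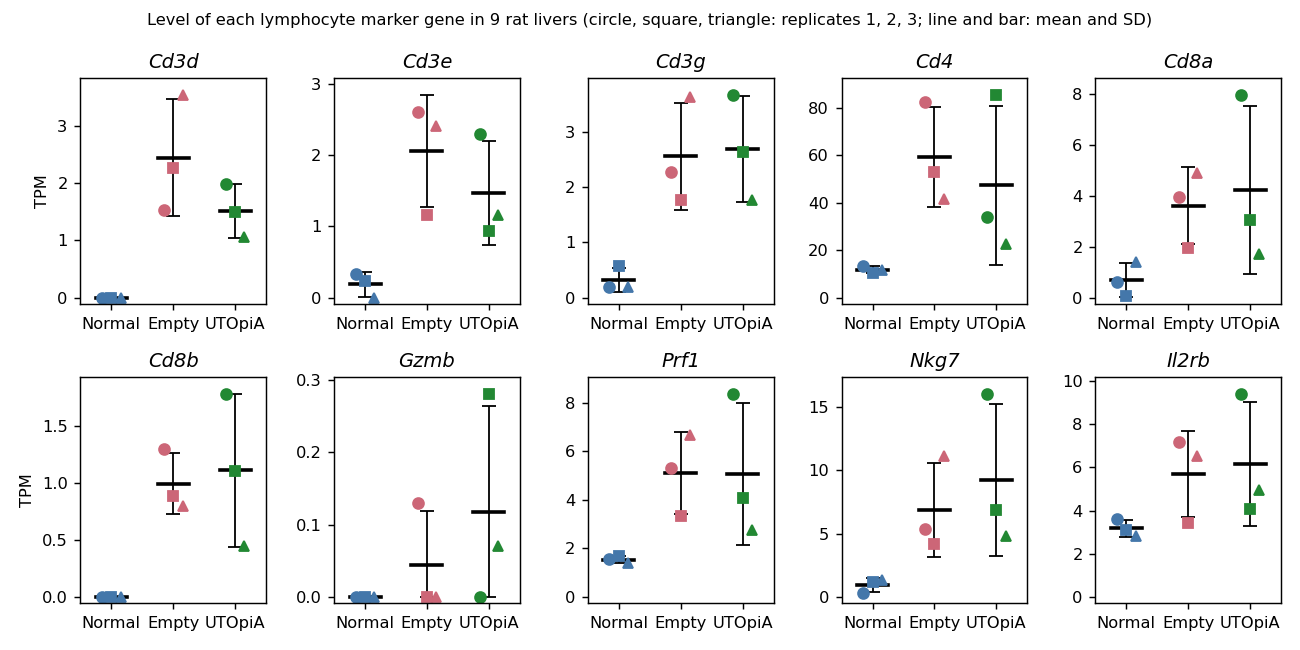
TPM of each of the 10 genes in the 3 normal, 3 empty and 3 UTOpiA livers, with 1 point per liver, the mean as a line and the SD as a bar (cut at 0 where the SD exceeds the mean). Cd3d and Cd8b sat at 0 in the 3 normal livers and above 0 in all 6 ACLF livers, while the empty and UTOpiA points overlapped for all 10 genes.

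Perforin transcripts were present in normal livers, and their fold change was smaller than that of the CD3 genes. Prf1 (ENSRNOG00000000562, chromosome 20, 30915213 to 30921382) was at 1.54, 1.68 and 1.38 TPM in normal livers, at 5.30, 3.32 and 6.67 TPM in the empty group and at 8.37, 4.09 and 2.76 TPM in the UTOpiA group. All ACLF livers were above all normal livers. The log2 fold change was 1.20 ± 0.39 for empty against normal (edgeR, adjusted p = 0.0300) and 1.38 ± 0.40 for UTOpiA against normal (edgeR, adjusted p = 0.0209). The first call was lost when any of the 3 normal livers, empty replicate 1 or empty replicate 3 was left out, with edgeR adjusted p between 0.0683 and 0.0927. In DESeq2 it was lost without normal replicate 3, empty replicate 1 or empty replicate 3 (adjusted p = 0.0624, 0.0609 and 0.0842). The second was lost in edgeR without any of the normal livers or UTOpiA replicate 1, and in DESeq2 without UTOpiA replicate 1.

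Nkg7 (ENSRNOG00000017749, chromosome 1, 98492828 to 98493978) was at 0.284, 1.20 and 1.32 TPM in normal livers (2, 9 and 10 counts), at 5.35, 4.19 and 11.1 TPM in the empty group and at 16.1, 6.89 and 4.80 TPM in the UTOpiA group. The normal livers lay below all ACLF livers, and UTOpiA replicate 1 had the highest level. The log2 fold change was 2.31 ± 0.64 for empty against normal (edgeR, adjusted p = 0.0141) and 2.94 ± 0.64 for UTOpiA against normal (edgeR, adjusted p = 0.00621). Without empty replicate 3 the first was not called (edgeR, adjusted p = 0.0517). This short gene lies on the minus strand in the deposited table and on the plus strand in GRCr8, which are different builds.

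Gzmb (ENSRNOG00000045973) was hardly detected and was not tested. It had 0 counts in all normal livers, 2, 0 and 0 counts in the empty group and 0, 4 and 1 counts in the UTOpiA group. Its entry in the deposited table spans 144626 bp of chromosome 15 (36327721 to 36472346, minus strand) and overlaps 3 other genes, 2 of them on the same strand, whereas the GRCr8 entry spans 3463 bp. Reads in overlapping genes may not be assigned to 1 of them, so the counts of Gzmb are uncertain. A granzyme B-like neighbour, Gzmbl2, had 0, 1 and 1 counts in normal livers, 6, 46 and 9 in empty livers and 17, 7 and 5 in UTOpiA livers, with empty replicate 2 far above the others. The other granzyme B-like genes were near 0, with 1 count in all for Gzmbl1 (in empty replicate 3) and 0 to 3 counts per liver for Gzmbl3. These 3 genes were named after their values were seen.

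Il2rb (ENSRNOG00000048636, chromosome 7, 119701251 to 119716238, minus strand) had the smallest fold changes against normal of the 9 tested genes. It was at 3.59, 3.12 and 2.82 TPM in normal livers, at 7.17, 3.44 and 6.54 TPM in the empty group and at 9.42, 4.07 and 4.95 TPM in the UTOpiA group. Empty replicate 2 fell within the range of the normal livers, and the UTOpiA livers lay above them in TPM but not after TMM scaling. The log2 fold change was 0.33 ± 0.38 for empty against normal (edgeR, adjusted p = 0.496, 95% interval -0.52 to 1.18) and 0.65 ± 0.38 for UTOpiA against normal (edgeR, adjusted p = 0.199, 95% interval -0.20 to 1.51).

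For empty against normal, 7 of the 10 genes were called higher, which required an adjusted p below 0.05 together with more than a 2-fold change. They were Cd3d, Cd3e, Cd3g, Cd4, Cd8b, Prf1 and Nkg7. Over all 14089 tested genes, 20.7% were called higher by this rule. For UTOpiA against normal the number was also 7, against 18.2% of all tested genes, and the 2 comparisons share the normal livers. The median log2 fold change over the 9 tested members was 2.31 and 2.62. This median includes genes that could be tested only because the ACLF livers held them. When at least 10 counts were required in every library, Cd4, Prf1 and Il2rb remained, and 2 of these 3 were called in each comparison. In TPM, 8 of the 10 genes had all empty livers above all normal livers, against 53.4% of tested genes, and 9 of 10 had all UTOpiA livers above all normal livers, against 39.0%. After TMM scaling these numbers were 7 (32.4% of all tested genes) and 8 (30.8%).

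**Figure D2:**
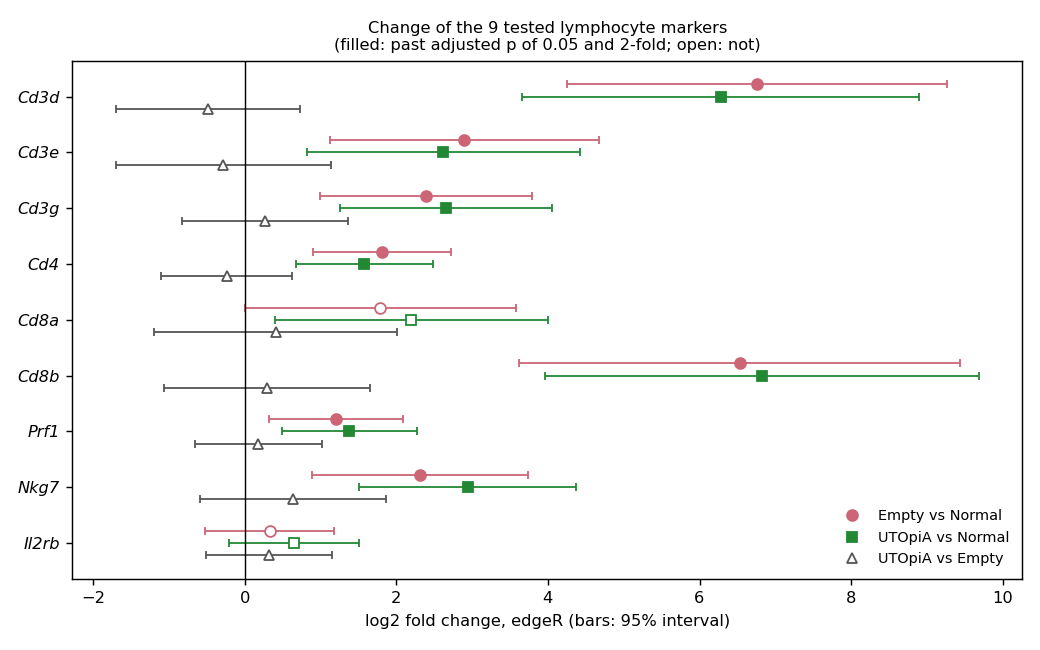
Log2 fold change of the 9 tested genes in 3 comparisons from edgeR, with 95% intervals as bars and filled symbols for genes past an adjusted p of 0.05 and a 2-fold change. Each ACLF group had 7 genes past both thresholds against normal, and all 9 intervals of UTOpiA against empty (grey triangles) include 0. The fitted values of Cd3d and Cd8b against normal depend on the fit, because their normal counts were 0.

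The comparison of UTOpiA with empty livers asked what cells and beads in the circuit changed in ACLF. None of the 10 genes was called, and in edgeR 0.0% of all tested genes was called at an adjusted p under 0.05, while 10.3% had an unadjusted p under 0.05 and 0.882% were called by DESeq2. Among the members, 0 had an unadjusted p under 0.05 in edgeR and 0 were called by DESeq2. The lowest unadjusted p was that of Nkg7, with a log2 fold change of 0.63 ± 0.55 (edgeR quasi-likelihood test, adjusted p = 0.727). Cd3d had the lowest value, -0.48 ± 0.52, with a 95% interval of -1.70 to 0.73. The interval was -1.70 to 1.14 for Cd3e, -0.83 to 1.36 for Cd3g, -1.11 to 0.63 for Cd4, -1.19 to 2.01 for Cd8a and -1.07 to 1.66 for Cd8b. It was -0.66 to 1.02 for Prf1, -0.59 to 1.86 for Nkg7 and -0.51 to 1.16 for Il2rb. Changes of 2-fold in at least 1 direction thus lay inside every one of these intervals, and similar levels are not shown. In TPM 0 of the 10 genes had the 2 groups apart, while of all tested genes 2.43% had every UTOpiA liver above every empty one and 8.62% the reverse.

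The UTOpiA livers differed widely among themselves. UTOpiA replicate 1 was the highest of the 6 ACLF livers for 6 of the 10 genes (Cd3g, Cd8a, Cd8b, Prf1, Nkg7 and Il2rb), in TPM and after TMM scaling. UTOpiA replicate 3 was the lowest for 6 genes in TPM but for 2 after TMM scaling. Between the highest and the lowest ACLF liver the TPM differed 2.08-fold for Cd3g and 4.64-fold for Cd8a, the ends of the range over the 9 genes with values in all 6. Without UTOpiA replicate 1, the log2 fold change of UTOpiA against empty changed sign for the same 6 genes, to -0.024 for Cd3g, -0.43 for Cd8a, -0.24 for Cd8b, -0.39 for Prf1, -0.028 for Nkg7 and -0.089 for Il2rb. Cd4 followed another order, with UTOpiA replicate 2 and empty replicate 1 the highest.

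Ratios within a liver compared the genes with each other independently of scaling. The TPM ratio of Prf1 to summed CD3 was 2.87, 2.08 and 7.35 in normal livers, 0.826, 0.641 and 0.697 in empty livers and 1.05, 0.805 and 0.695 in UTOpiA livers. Every ACLF liver was thus below every normal liver, and the empty group was lower by -2.30 on the log2 scale (two-sided exact permutation test, p = 0.1). The ratio of Il2rb to CD3 was 6.70, 3.86 and 14.99 in normal livers, 1.12, 0.664 and 0.683 in empty livers and 1.19, 0.802 and 1.25 in UTOpiA livers, a difference of -3.19 for empty against normal (exact permutation p = 0.1). Beside perforin and Il2rb, CD3 was thus higher in every ACLF liver than in every normal liver. The CD3 values of the normal livers rest on 5, 6 and 1 counts.

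CD3 relative to Ptprc, which encodes the pan-leukocyte protein CD45, was 0.134, 0.234 and 0.0772 in normal livers, 0.240, 0.348 and 0.388 in empty livers and 0.422, 0.195 and 0.419 in UTOpiA livers. The empty livers were just above the normal livers, by 1.25 on the log2 scale (exact permutation p = 0.1), and the UTOpiA group overlapped both. The ratio of Nkg7 to CD3 was 0.529, 1.49 and 7.003 in normal livers, 0.834, 0.809 and 1.16 in empty livers and 2.02, 1.36 and 1.21 in UTOpiA livers. All UTOpiA livers were above all empty livers in this ratio, by 0.69 on the log2 scale, which was the only 1 of 10 ratios that separated these groups (exact permutation p = 0.1, adjusted p = 1 over the ratios). Between empty and normal 4 of 8 ratios separated the groups (adjusted p = 0.2 for each by the exact permutation test), and between UTOpiA and normal 2 of 8. Every ratio that separated groups contains the summed CD3 genes, so these ratios are not independent of each other.

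**Figure D3:**
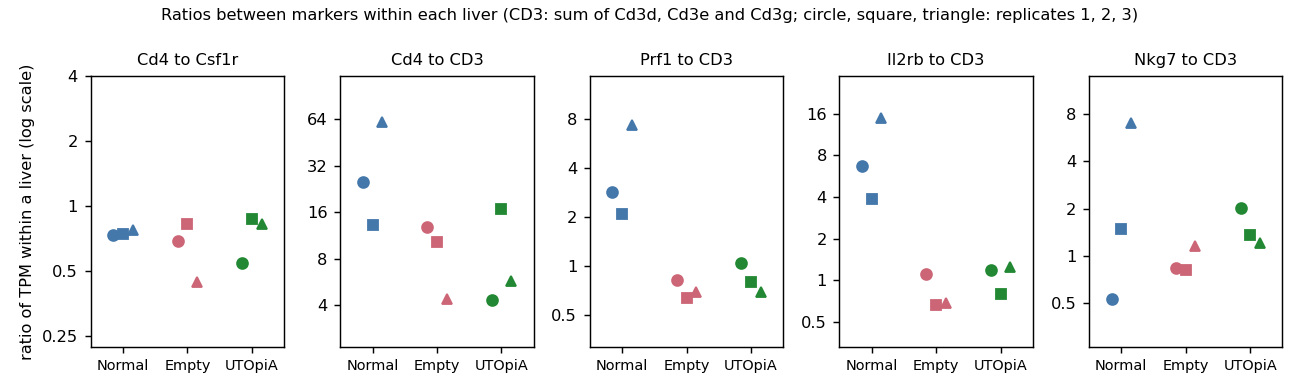
Ratios of TPM within each of the 9 livers on log axes, by group, where CD3 is the sum of Cd3d, Cd3e and Cd3g. The Cd4 to Csf1r ratios overlapped between groups (0.446 to 0.873), while Prf1 to CD3 and Il2rb to CD3 were lower in all 6 ACLF livers than in the 3 normal livers.

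In TPM, which is scaled to gene length, the order of the genes differed between normal and ACLF livers. In normal livers Cd4 (11.9 TPM) was followed by Il2rb (3.18 TPM), Prf1 (1.53 TPM) and Nkg7 (0.934 TPM), with every liver of 1 gene above every liver of the next for these neighbours. Cd8a, Cd3g and Cd3e followed without such separation. In the empty group Cd4 (59.1 TPM) was followed by Nkg7 (6.88 TPM), Il2rb (5.71 TPM), Prf1 (5.10 TPM), Cd8a (3.61 TPM), Cd3g (2.55 TPM), Cd3d (2.44 TPM), Cd3e (2.06 TPM), Cd8b (0.994 TPM) and Gzmb. Only Cd4 and the next gene, and Cd8b and Gzmb, were separate as neighbours there. The UTOpiA group had the same order.

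Genes that work with these markers were followed in 8 lists with 109 genes, of which 107 were in the table and 82 were tested. In the empty group against normal, 40 of the 82 were called higher and 4 lower, with a median log2 fold change of 1.57 beside 0.04 over all genes. Of all tested genes 20.7% were called higher and 11.1% lower, and these shares also stand beside the count of each list below. The median of 1.57 includes genes that could be tested only because the ACLF livers held them. For UTOpiA against normal, 43 were called higher and 1 lower (18.2% and 6.81% of all tested genes). With 1 library left out in turn, edgeR called 33 to 45 list genes for empty against normal and 29 to 46 for UTOpiA against normal. Between UTOpiA and empty, 0 of the 82 were called by edgeR, and DESeq2 called 1, Cxcl10, with a log2 fold change of -3.19 (adjusted p = 0.0396, DESeq2). The level of Cxcl10 in the empty group came from 32, 830 and 118 counts, so that empty replicate 2 held most of it. With 1 library left out, DESeq2 called Cxcl10 without empty replicate 1 or 3 and lost the call in the other 7 of 9 fits.

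Of 7 tested genes of the T cell receptor complex and surface, 3 rose and 0 fell in the empty group. Cd96, a receptor of T and NK cells, rose by 2.94 on the log2 scale (edgeR, adjusted p = 0.0061), Cd5, a T cell surface glycoprotein, by 2.35 (edgeR, adjusted p = 0.033) and its relative Cd6 by 1.56 (edgeR, adjusted p = 0.0226). Their normal levels rest on 5, 5 and 11 counts over 3 livers. Cd247, the zeta chain of the receptor, had 11, 9 and 0 counts in normal livers and 27, 15 and 19 in the empty group, and did not pass the test (0.88 ± 0.79, edgeR, adjusted p = 0.378). In T cell receptor signalling, 6 of 9 tested genes rose and 0 fell. Lck, the kinase bound to CD4 and CD8, had 19, 24 and 34 counts in normal livers, 101, 76 and 112 in empty livers and 110, 97 and 51 in UTOpiA livers. It rose by 1.20 ± 0.32 in the empty group (edgeR, adjusted p = 0.0122). The largest fold changes among the called genes of this list were those of the adaptors Sh2d2a (2.82) and Lcp2 (2.34) and of the kinase Prkcq (2.21).

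Of 11 tested cytotoxic granule and death ligand genes, 7 rose and 0 fell in the empty group. The largest were Stx11, a syntaxin of granule release (4.92, edgeR, adjusted p = 0.00136), Cst7, cystatin F (3.66, edgeR, adjusted p = 0.00664), and Ctsw, a cathepsin of cytotoxic cells (3.58, edgeR, adjusted p = 0.0024). In UTOpiA replicates 1, 2 and 3, Stx11 had 33, 156 and 18 counts and Cst7 had 55, 172 and 23. Both were highest in replicate 2 of this group, as were Cd4 and Csf1r, while Prf1, Nkg7 and Ctsw were highest in replicate 1. The cells that carried Stx11 and Cst7 were not tested. Granzyme K, Gzmk, had 4, 6 and 7 counts in normal livers, 47, 27 and 39 in empty livers and 54, 33 and 29 in UTOpiA livers. It rose by 2.01 ± 0.45 in the empty group (edgeR, adjusted p = 0.00526). Granzyme A, Gzma, had 8, 27 and 31 counts in normal livers, 74, 31 and 103 in empty livers and 60, 37 and 15 in UTOpiA livers. Its groups overlapped, and its log2 fold change of 0.94 ± 0.61 did not pass the test (edgeR, adjusted p = 0.225). The difference between Gzmk and Gzma was not tested.

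Of 14 tested NK receptors, 7 rose and 0 fell in the empty group, and 10 rose in the UTOpiA group against normal. Klri2 had 0 counts in all normal livers, 14, 3 and 11 in empty livers and 14, 9 and 7 in UTOpiA livers, and was at least 5.72-fold higher in the empty group (edgeR, adjusted p = 0.0112). Cd244 rose by 3.34 (edgeR, adjusted p = 0.00309) and Klrb1b by 2.85 (edgeR, adjusted p = 0.000373). In UTOpiA livers Cd244 had 37, 130 and 28 counts, highest in replicate 2 as for Cd4 and Csf1r, and the cells that carried it were not tested. The NK receptor Ncr1, which encodes NKp46, had 5, 7 and 3 counts in normal livers, 13, 5 and 17 in empty livers and 26, 8 and 11 in UTOpiA livers, and did not pass the test against normal in either group (edgeR, adjusted p = 0.585 and 0.194). Klrd1, encoding CD94, did not pass in the empty group (0.76, edgeR, adjusted p = 0.327) and passed in the UTOpiA group (1.80, edgeR, adjusted p = 0.0387). The difference between these groups was 1.04 ± 0.56 and did not pass the test (edgeR, adjusted p = 0.552).

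In the IL-2, IL-7 and IL-15 receptor system, 4 of 11 tested genes rose, 0 fell and the median log2 fold change was -0.13. The genes with the largest rise were Il21r (3.90, edgeR, adjusted p = 0.000191), Il2rg, the common gamma chain (3.76, edgeR, adjusted p = 5.92e-05), and Il2ra, the alpha chain of the high-affinity IL-2 receptor (3.56, edgeR, adjusted p = 0.000573). Il2ra had 45, 45 and 50 counts in empty livers and 19, 16 and 15 in UTOpiA livers, so that every UTOpiA liver was below every empty one. The change of -1.17 ± 0.41 between them did not pass the test (edgeR, adjusted p = 0.404). Il15ra, the alpha chain of the IL-15 receptor, named after its values were seen, did not pass the test, with -0.52 ± 0.38 in the empty group (edgeR, adjusted p = 0.28). The differences between these chains and Il2rb were not tested. Il2rg had 15, 9 and 10 counts in normal livers, 291, 200 and 272 in empty livers and 182, 275 and 111 in UTOpiA livers, with no overlap between normal and ACLF. Il15, the cytokine that maintains NK and memory CD8 T cells, had 13, 19 and 38 counts in normal livers and 16, 31 and 53 in the empty group, and its change of -0.20 ± 0.50 did not pass the test (edgeR, adjusted p = 0.766). Il2 and Il7r were listed at 0 counts in all 9 livers.

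Among 10 tested lymphocyte transcription factors 3 rose and 1 fell in the empty group, near the 20.7% and 11.1% of all tested genes. Those that rose were Runx3 (3.98, edgeR, adjusted p = 0.00265), Tox (3.10, edgeR, adjusted p = 0.0415) and Ikzf1 (1.51, edgeR, adjusted p = 0.00494), and the one that fell was Zbtb7b, the ThPOK gene (-1.06, edgeR, adjusted p = 0.00452). In normal livers Zbtb7b had a mean of 38.2 TPM, beside 0.188 to 0.807 TPM for the summed CD3 genes. The cells that carried Zbtb7b were not tested. For Runx3 and Tox, empty replicate 2 was the highest liver, with 88 and 57 counts against 21 and 24, and 12 and 18, in the other empty livers. Tbx21, encoding T-bet, did not pass the test (0.59, edgeR, adjusted p = 0.442), nor did its relative Eomes in the empty group (1.55, edgeR, adjusted p = 0.156), which passed in the UTOpiA group against normal (2.47, edgeR, adjusted p = 0.0369) from 9, 11 and 11 counts against 1, 2 and 1. Between UTOpiA and empty, the change of Eomes was 0.92 ± 0.65 and did not pass the test (edgeR, adjusted p = 0.661).

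Among 7 tested regulatory and checkpoint genes 2 rose and 1 fell in the empty group, near the 20.7% and 11.1% of all tested genes. Tnfrsf18, encoding GITR, had 1, 0 and 0 counts in normal livers and 3, 26 and 25 in the empty group, a ratio of 33.1 with a 95% counting interval of 5.69 to 1331 (edgeR, adjusted p = 0.0109). Icos, a T cell co-stimulator, rose by 1.48 (edgeR, adjusted p = 0.0192), and Tnfrsf9, encoding 4-1BB, fell by 1.58 (edgeR, adjusted p = 0.00192). In normal livers Tnfrsf9 had a mean of 13.9 TPM, above the summed CD3 genes, and the cells that carried it were not tested. Foxp3, the factor of regulatory T cells, had 52, 53 and 59 counts in normal livers and 126, 122 and 143 in the empty group. Its mean level in normal livers was 1.75 TPM, beside 0.188 to 0.807 TPM for the summed CD3 genes. Its log2 fold change of 0.54 passed the adjusted p (edgeR, 0.0339) but not the 2-fold threshold. In the UTOpiA group Foxp3 had 93, 106 and 72 counts, below every empty liver, and the change of -0.25 ± 0.18 from empty did not pass the test (edgeR, adjusted p = 0.677). Pdcd1, encoding PD-1, was listed at 0 in all livers but empty replicate 3, which had 1 count.

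Of 13 tested homing genes, 8 rose and 2 fell in the empty group. Cxcr3 and Cxcr6, chemokine receptors of effector T and NK cells, rose by 2.69 (edgeR, adjusted p = 0.0165) and 2.29 (edgeR, adjusted p = 0.0331). Cxcr3 had 0, 3 and 3 counts in normal livers, 16, 18 and 32 in empty livers and 20, 10 and 17 in UTOpiA livers. The ligands with the largest change were Cxcl16, the ligand of CXCR6 (5.01, edgeR, adjusted p = 5.8e-05), and Cxcl9 and Cxcl10, ligands of CXCR3 (3.91 and 3.69, edgeR, adjusted p = 0.0138 and 0.0266). Cxcl9 had 6875, 209 and 8861 counts in the empty group against 197, 204 and 233 in normal livers, so empty replicate 2 was at the normal level. The third CXCR3 ligand, Cxcl11, fell by 1.89 (edgeR, adjusted p = 0.000673), and S1pr1, the receptor by which T cells leave tissue and which endothelium also carries, fell by 1.59 (edgeR, adjusted p = 0.000617).

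Of 34 called genes named here that are no members, macrophage and leukocyte genes included, 24 stayed called for empty against normal with each of the 9 libraries left out in turn. The call was lost in 7 of 9 such fits for Tox, in 6 for Prkcq, in 5 each for Icos and Cxcr6, in 4 each for Sh2d2a and Cxcl10, in 3 each for Cd5 and Cd6 and in 1 each for Cxcr3 (without empty replicate 3) and Zbtb7b (without empty replicate 2). For Tox the log2 value ranged from 2.08 to 7.64 over these fits, and for Cxcl10 from 1.45 to 4.22. Tox was called only without normal replicate 1 or empty replicate 1, Prkcq only without empty replicate 1 or UTOpiA replicate 2 or 3. Icos and Cxcr6 were not called without any 1 of the normal livers, empty replicate 1 or empty replicate 3, nor Cxcl10 without any 1 of the normal livers or empty replicate 2. Sh2d2a was lost without normal replicate 1 or 2, empty replicate 3 or UTOpiA replicate 2, Cd5 without normal replicate 2 or 3 or empty replicate 3, and Cd6 without normal replicate 1 or 2 or empty replicate 2. Klri2, Runx3, Il2ra, Ctsw and Gzmk were called in all 9 fits.

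**Figure D4:**
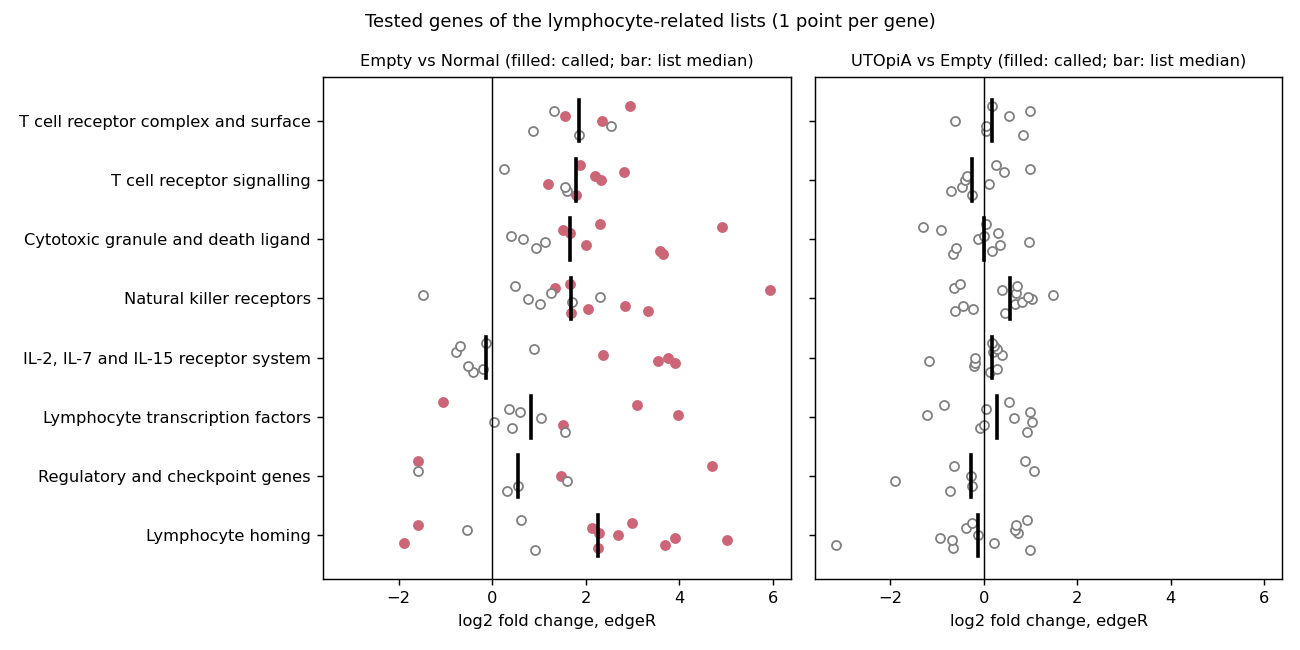
Log2 fold change of each tested gene in the 8 related lists for empty against normal (left) and UTOpiA against empty (right), with called genes filled and the list median as a bar. On the left 40 genes were called higher and 4 lower, and on the right 0 genes were called.

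Markers of several other cell types also changed between normal and empty livers, some upward and some downward. Of all tested genes 20.7% were called higher and 11.1% lower in the empty group. All 6 tested pan-leukocyte genes rose there, and the summed level of the pan-leukocyte list was 36.1 to 48.1 TPM in normal livers, 178 to 523 TPM in the empty group and 124 to 395 TPM in the UTOpiA group. Ptprc had a log2 fold change of 2.23 ± 0.31 (edgeR, adjusted p = 0.000562), beside larger values for Cd3e (2.90), Cd3g (2.39) and Nkg7 (2.31) and smaller ones for Cd4 (1.81), Cd8a (1.79), Prf1 (1.20) and Il2rb (0.33), and these differences were not tested. All 5 tested neutrophil markers rose, with summed levels of 2.36 to 5.92 TPM in normal livers, 190 to 1109 TPM in the empty group and 175 to 508 TPM in the UTOpiA group, while the granule gene Ltf was at 0 counts throughout. Of the dendritic cell markers 3 of 8 rose, of the proliferation genes 4 of 5, of the cholangiocyte markers 6 of 6 and of the stellate cell and fibroblast markers 5 of 6. Of the erythroid genes 2 of 3 rose and 1 fell. B and plasma cell markers gave 0 calls among 3 tested, and Cd79a, a defining B cell gene, had 0, 15 and 2 counts in normal livers, 11, 0 and 5 in empty livers and 2, 7 and 13 in UTOpiA livers. Of 8 hepatocyte markers, 5 fell and 0 rose, and their summed level remained above that of every other list. The part of these cells in the results was not tested.

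By log2 CPM over the 9 livers, the genes most like the mean of the CD3 genes were Rcsd1 (Pearson r of 0.99), Ctsw (0.99), Ankrd10 (0.98), Ifitm1 (0.98) and Tlcd5 (0.98). Over the 6 ACLF livers alone r was 0.81 for Rcsd1, 0.84 for Ctsw, 0.91 for Ankrd10, 0.73 for Ifitm1 and 0.62 for Tlcd5. Those most like the mean of Gzmb, Prf1 and Nkg7 were Zfp277 (0.97), Zmynd8 (0.96), Exoc7 (0.96), Snrnp27 (0.96) and Ubash3b (0.95), with r of 0.86 to 0.92 over the ACLF livers. This mean includes Gzmb, which was at 0 counts in 6 of the 9 livers, so the ranking rests partly on a gene at the floor. The points share their library, and over 9 livers they include the step from normal to ACLF.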

How the data were processed

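Bulk RNA-seq of 9 rat livers, grouped by their labels, was analysed from 2 deposited tables. The deposited counts are whole reads per gene without normalization, and the deposited TPM were scaled by the authors to gene length and to 1000000 per library. The submitters' processing notes name Trimmomatic, HISAT2, featureCounts and rn6, whereas the paper's methods name Cutadapt and the mouse build GRCm38. The table lists rat Ensembl genes, and its largest position on chromosome 1 is 282724300. The labels and methods also name different directional library kits, and the strand setting of counting is not given in the sources used here.

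Counts were filtered by filterByExpr, scaled by TMM and fitted with the quasi-likelihood test of edgeR 4.0.16 (R 4.3.3), using all 9 libraries, 1 mean per group and robust dispersion. Genes were called at a two-sided Benjamini-Hochberg adjusted p under 0.05 over all tested genes and a fold change above 2, with DESeq2 1.42.0 (the tool of the paper's methods) and limma 3.58.1 on log2(TPM + 1) or log2(TPM + 0.1) as alternatives. Scripts were tested on simulated data. Single ratios of TPM were compared by a two-sided exact permutation test. Counting intervals (95%, exact Clopper-Pearson for the share of counts) and the floor of 3 counts over a group cover counting error only. Replicate pairs differed beyond sampling noise. Same-numbered livers did not deviate together (r from -0.183 to 0.0638), so numbers were not treated as pairs. The members, lists and tests were chosen with earlier results of these data known. Named genes were the 10 members, up to 3 called genes per list and direction with the largest change in empty against normal, fixed defining genes, and the 5 genes most correlated with each marker mean.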

Additional observations from a re-analysis of the deposited data

How the results depend on the processing

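The counts of called members and list genes kept their direction under DESeq2, limma on TPM, median-of-ratios scaling, no filter, no fold threshold, library totals and the comparison of only 6 libraries, apart from the values given here. With at least 10 counts in every library, the called members were 2 of 3 for empty against normal and 2 of 3 for UTOpiA against normal (7 of 9 in each before), and the called list genes were 20 and 16 of 36 (44 of 82 in each before), because fewer genes were tested. With only the 6 libraries of UTOpiA against normal, 4 of 6 tested members were called. With limma on log2(TPM + 1), 27 list genes were called for UTOpiA against normal. For UTOpiA against empty, DESeq2 called 1 list gene, and 1 (Cxcl10) without empty replicate 1 or 3, 4 without empty replicate 2 and 5 without UTOpiA replicate 2. The cause of these differences was not tested.

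With each library left out in turn, edgeR called 5 to 7 members for empty against normal, 0 for UTOpiA against empty and 4 to 8 for UTOpiA against normal, the lowest of these without normal replicate 2. DESeq2 gave 5 to 8, 0 and 5 to 8, an alternative added after the data were seen, as were library totals. List genes called were 33 to 45, 0 and 29 to 46 in edgeR and 37 to 49, 0 to 5 and 37 to 47 in DESeq2, with 29 without normal replicate 2. Ratios that separated the groups were 4 to 5, 1 to 3 and 2 to 5, with 3 for UTOpiA against empty without UTOpiA replicate 2, 2 without UTOpiA replicate 3 or empty replicate 1, 4 for UTOpiA against normal without UTOpiA replicate 2 and 5 without normal replicate 2.

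With the replicate number as a block, 7, 0 and 8 members and 41, 0 and 40 list genes were called in the 3 comparisons, and Cd8a passed for UTOpiA against normal (2.33, edgeR, adjusted p = 0.0421). It changed no other call among the members.

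For single members 0 of 233 alternatives reversed the direction of empty against normal and 0 of 232 that of UTOpiA against normal, while 22 of 235 did so for UTOpiA against empty, where no member was called. Without UTOpiA replicate 1 the log2 values became -0.024 for Cd3g (DESeq2 -0.031), -0.43 for Cd8a (DESeq2 -0.44), -0.24 for Cd8b (DESeq2 -0.25), -0.39 for Prf1 (DESeq2 -0.39), -0.028 for Nkg7 (DESeq2 -0.035) and -0.089 for Il2rb (DESeq2 -0.10). Cd3e was 0.043 without UTOpiA replicate 2 (DESeq2 0.0086). Cd4 was 0.14 without empty replicate 1 (DESeq2 0.12) and 0.00043 without UTOpiA replicate 3. Prf1 was -0.074 with limma on log2(TPM + 1), -0.10 on log2(TPM + 0.1), -0.012 with library totals and -0.039 without empty replicate 2 (DESeq2 -0.069). Over the 9 fits with 1 library left out, the log2 value ranged from -0.73 to 0.043 for Cd3e, -0.024 to 0.53 for Cd3g, -0.76 to 0.14 for Cd4, -0.43 to 0.72 for Cd8a, -0.24 to 0.59 for Cd8b, -0.39 to 0.40 for Prf1, -0.028 to 1.07 for Nkg7 and -0.089 to 0.63 for Il2rb. Depth limits the normal values of Cd3d, Cd8b and Gzmb, which had 0 counts, and of the summed CD3 genes, which rest on 5, 6 and 1 counts.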
